A study of Mus musculus with 7 samples.

Results

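The Janus kinases are the 4 genes Jak1, Jak2, Jak3 and Tyk2, taken as the rows whose mouse Entrez number carries those symbols. All 4 were found among 27179 genes, and all 4 passed the filter on low values. Messenger RNA was sequenced from skinned whole ankles. The DBA1 mice had collagen-induced arthritis, a model of joint inflammation and erosion raised by immunising with collagen. In 4 ankles a lipoplex, a lipid carrier, had carried miR-17-5p mimic, a synthetic form of that microRNA, into the joint, and in the 3 control ankles it had delivered an irrelevant microRNA. Every ankle therefore carried arthritis, an intra-articular injection and the lipid carrier, and no uninjected or non-arthritic ankle was analysed here. The sources used here do not give the age or sex of the mice, the time after injection, or whether each ankle came from its own animal. P-values therefore measure only the spread between these samples, which may be technical.

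Janus kinases are cytoplasmic tyrosine kinases bound to the inner tails of cytokine receptors. When a cytokine brings receptor chains together, the attached kinases activate each other and phosphorylate STAT transcription factors, which then enter the nucleus. JAK1 serves receptors for interferons, the IL-6 family and the shared gamma chain, JAK2 serves receptors for growth hormone, erythropoietin, GM-CSF and interferon gamma, JAK3 binds the shared gamma chain and is found mainly in blood cells, and TYK2 serves type I interferon, IL-10, IL-12 and IL-23 receptors. Drugs that block these kinases are used against rheumatoid arthritis.

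The injected agent acts by base pairing, so its sequence and the matching sites in the kinase transcripts are shown. A microRNA recognises a messenger RNA mainly through its seed, bases 2 to 8, printed in capitals in the mature mouse sequence from RefSeq (GRCm38.p6, chr14:115043684-115043706, plus strand).
mmu-miR-17-5p: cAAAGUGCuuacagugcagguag
RefSeq lists 7 mature mouse microRNAs with this seed, among them miR-20a-5p, miR-93-5p and miR-106b-5p. For each kinase the longest 3 prime UTR in GENCODE M21 (GRCm38) was searched on the transcript strand for the 8mer GCACTTTA, the 7mers GCACTTT and CACTTTA, which both lie within the 8mer, and the 6mer CACTTT, which lies within all of these. Jak1 held 2 matches, a 7mer of each kind, in a UTR of 1128 bases. The sites are printed 5 prime to 3 prime with the match in capitals.
Jak1, 7mer ending in A, chr4:101152628-101152634, minus strand: tcaacagctttCACTTTAgattcaatgtga
Jak1, 7mer pairing with bases 2 to 8, chr4:101152404-101152410, minus strand: tcgctctatatGCACTTTgtttactcttta
The first began at base 861 of the UTR and the second at base 1085, with 37 bases between it and the annotated end. Jak2, Jak3 and Tyk2 held no 8mer, 7mer or 6mer in UTRs of 1232, 419 and 980 bases. An 8mer or 7mer occurred in 21.4% of the 12495 tested genes with an annotated UTR. A match describes these letters and does not show that the site was used.

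**Figure D1:**
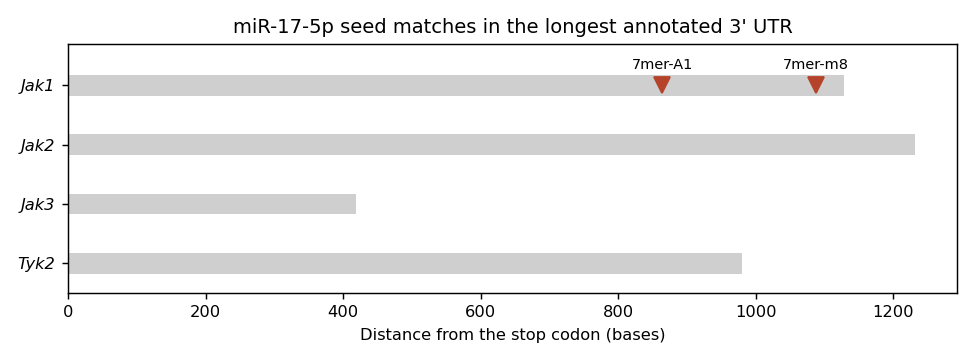
The 3 prime UTR searched in each Janus kinase gene, drawn as a grey bar from the stop codon (x axis, bases), with triangles at matches to the miR-17-5p seed. Jak1 carries 2 matches near its far end, and the bars of Jak2, Jak3 and Tyk2 carry none.

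Jak1 was the most abundant of the 4 transcripts, followed by Jak2, Jak3 and Tyk2. Levels are FPKM, reads scaled by exon length and by the library's assigned reads, so they can be compared between genes. Jak1 averaged 48.3 ± 2.40 FPKM in mimic ankles (SD, n = 4) and 50.9 ± 3.21 FPKM in control ankles (SD, n = 3). Jak2 averaged 19.15 ± 1.34 FPKM in mimic ankles and 24.6 ± 4.30 FPKM in control ankles. Jak3 averaged 17.5 ± 0.893 FPKM in mimic ankles and 19.35 ± 1.56 FPKM in control ankles. Tyk2 averaged 12.9 ± 1.255 FPKM in mimic ankles and 12.1 ± 0.515 FPKM in control ankles. Jak1 exceeded each of the others in 7 of 7 libraries, and Jak3 exceeded Tyk2 in 7 of 7. Jak2 and Jak3 were neighbours whose ranges overlapped within each group, with Jak2 the higher in 6 of 7 libraries. The reads behind these levels numbered from 1546 for Tyk2 in control replicate 3 to 8439 for Jak1 in control replicate 5.

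None of the 4 kinases differed between mimic and control ankles at an adjusted p under 0.05 when all 7 libraries were used. The same was true of every other gene, since limma with Benjamini-Hochberg adjustment passed 0% of the 13418 genes tested, as did limma-voom on the recovered reads, while 17.6% of genes had an unadjusted p under 0.05 in either direction. At an unadjusted p under 0.05, 1 of the 4 kinases, Jak2, was lower in mimic ankles, where 10.1% of all genes were, and 0 were higher, where 7.48% of all genes were. The unadjusted p of Jak2 was 0.0257, and it was above 0.05 without mimic replicate 1 (0.0606), mimic replicate 5 (0.0594), control replicate 3 (0.0975) or control replicate 5 (0.0896), and with the replicate number as a block (0.222), all by limma. The median log2 fold change (mimic minus control) was -0.11 over the 4 kinases and -0.0063 over all genes tested. In whole ankles, fewer cells of a type and less RNA per cell cannot be told apart.

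**Figure D2:**
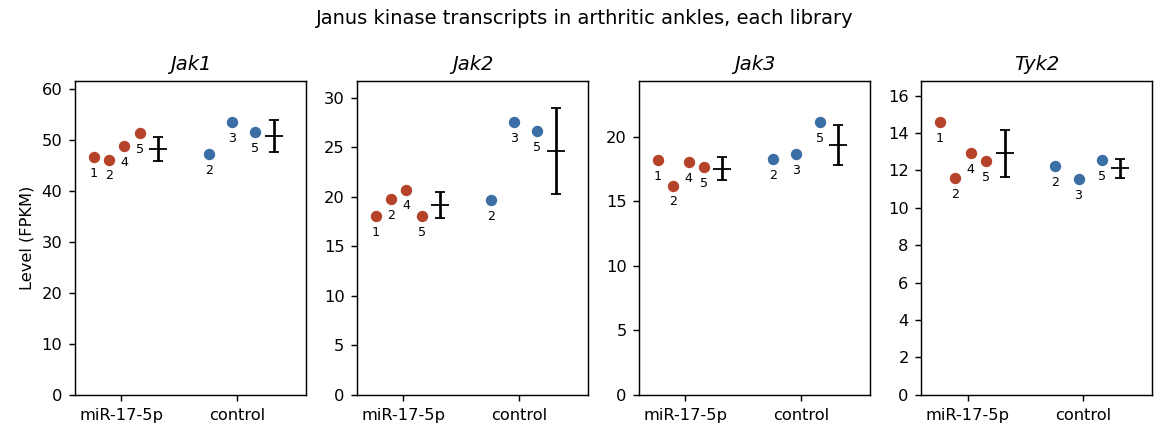
Level (FPKM, y axis from 0) of Jak1, Jak2, Jak3 and Tyk2 in each of the 4 miR-17-5p ankles and 3 control ankles, with replicate numbers under the points and the mean and SD in black. Jak2 in control replicate 2 (19.67 FPKM) lies among the mimic ankles (18.03 to 20.73 FPKM), and control replicates 3 and 5 lie above them.

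Jak1, the kinase with the seed matches, stood at 46.69, 46.23, 48.9 and 51.47 FPKM in mimic replicates 1, 2, 4 and 5, against 47.35, 53.62 and 51.66 FPKM in control replicates 2, 3 and 5. The groups overlapped, with the highest mimic ankle above the lowest control ankle. Its log2 fold change was -0.073 (SE 0.067, limma adjusted p = 0.577). On the linear scale the estimate was 0.951-fold with a 95% confidence interval from 0.853 to 1.06, which includes no difference. The reads behind it were 7509, 7624, 7596 and 7921 in mimic replicates 1, 2, 4 and 5 and 7410, 7804 and 8439 in control replicates 2, 3 and 5. With a library left out the log2 fold change lay between -0.123, without control replicate 2, and -0.0344, without control replicate 3, and with the replicate number as a block it was -0.0197. Among all tested genes, the median log2 fold change was -0.0083 for the 2671 with an 8mer or 7mer and -0.0065 for the 7412 with no match. The mature microRNA itself was not measured in these libraries.

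Jak2 had the widest difference. It stood at 18.03, 19.81, 20.73 and 18.04 FPKM in mimic replicates 1, 2, 4 and 5, against 19.67, 27.55 and 26.61 FPKM in control replicates 2, 3 and 5. Control replicates 3 and 5 lay above every mimic ankle, whereas control replicate 2 lay within the mimic range. The log2 fold change was -0.34 (SE 0.12, limma adjusted p = 0.236), or 0.79-fold with a 95% confidence interval from 0.647 to 0.963. Without control replicate 2 it was -0.49 (SE 0.077, limma adjusted p = 0.0418). That library was the only control within the mimic range. Its removal therefore fixed in advance that 4 of 4 mimic ankles lay below both remaining controls. In that fit 2.37% of all genes passed, 1.51% lower and 0.857% higher in mimic ankles, and of the 4 kinases 1 passed lower and 0 higher. In reads, Jak2 had 2752, 3101, 3057 and 2636 in mimic replicates 1, 2, 4 and 5 and 2922, 3806 and 4126 in control replicates 2, 3 and 5. A count-based fit with limma-voom gave -0.348 (adjusted p = 0.228). Without control replicate 3 or 5 the log2 fold change was -0.25 or -0.28, with limma adjusted p of 0.451 and 0.596.

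Jak3, the partner of the shared gamma chain, was the 1 kinase whose groups did not overlap, where 8.84% of all genes lay wholly below the controls. Its levels were 18.17, 16.21, 18 and 17.63 FPKM in mimic replicates 1, 2, 4 and 5, against 18.28, 18.63 and 21.13 FPKM in control replicates 2, 3 and 5. The gap was narrow, since mimic replicate 1 and control replicate 2 differed by little. The log2 fold change was -0.14 (SE 0.072, limma adjusted p = 0.352), or 0.908-fold with an interval from 0.808 to 1.02. Jak3 was counted at 2253, 2060, 2155 and 2092 reads in mimic replicates 1, 2, 4 and 5 and 2205, 2090 and 2661 reads in control replicates 2, 3 and 5. Without control replicate 5, the highest library, the log2 fold change was -0.076 (limma adjusted p = 0.766).

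Tyk2, which serves the type I interferon receptor, was the 1 kinase with a higher mean in mimic ankles. Its levels were 14.59, 11.59, 12.95 and 12.51 FPKM in mimic replicates 1, 2, 4 and 5, against 12.25, 11.55 and 12.55 FPKM in control replicates 2, 3 and 5. Mimic replicate 1 stood apart at the top, and the other mimic ankles lay in or near the control range. The log2 fold change was 0.084 (SE 0.082, limma adjusted p = 0.600), or 1.06-fold with an interval from 0.927 to 1.21. Its reads numbered 2158, 1758, 1850 and 1770 in mimic replicates 1, 2, 4 and 5 and 1763, 1546 and 1886 in control replicates 2, 3 and 5. Without mimic replicate 1 the log2 fold change was 0.026, and with the replicate number as a block it turned to -0.041.

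**Figure D3:**
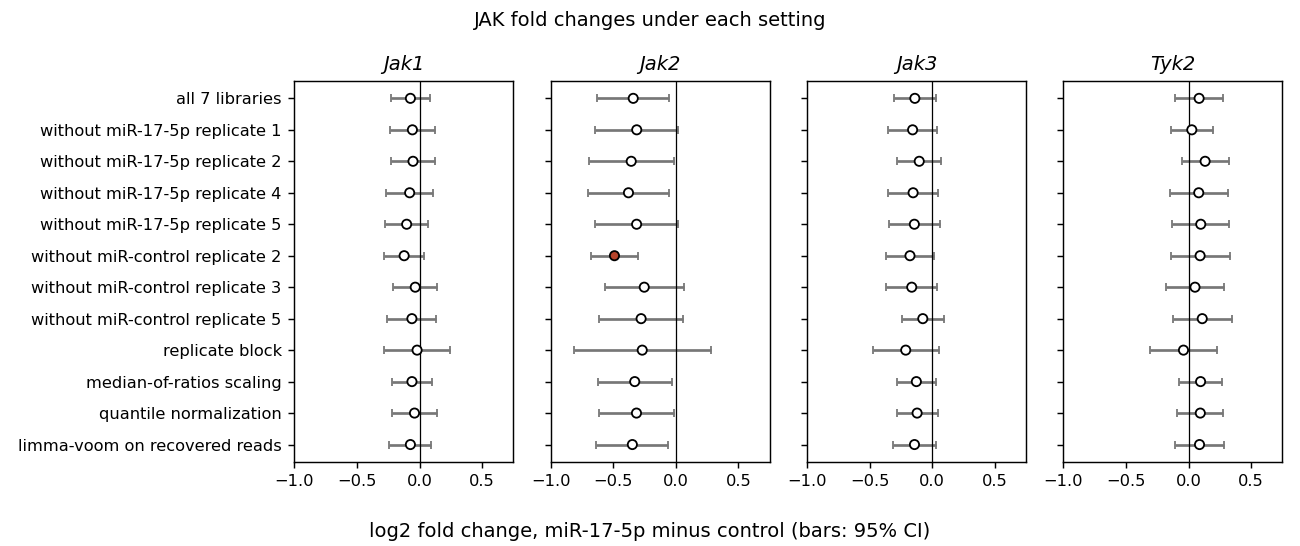
Log2 fold change (x axis, miR-17-5p minus control) of each Janus kinase with all 7 libraries, without each library and under other settings, with 95% confidence intervals as bars and filled points where the adjusted p was under 0.05. The single filled point is Jak2 without control replicate 2, at -0.49.

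The 4 kinases also differed in how much of the family's transcript each made up. Summed over the family, the level was 97.49, 93.84, 100.6 and 99.66 FPKM in mimic replicates 1, 2, 4 and 5, against 97.55, 111.4 and 112 FPKM in control replicates 2, 3 and 5. Jak1 made up 49.4% ± 1.63 of that sum in mimic ankles (SD, n = 4) and 47.6% ± 1.29 in control ankles (SD, n = 3). Jak2 made up 19.6% ± 1.501 in mimic ankles and 22.9% ± 2.41 in control ankles, and the groups overlapped through control replicate 2, at 20.2%. Jak3 made up 17.9% ± 0.574 in mimic ankles and 18.1% ± 1.20 in control ankles. Tyk2 made up 13.2% ± 1.21 in mimic ankles and 11.4% ± 1.10 in control ankles.

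Of the 6 ratios between members, Jak3 to Tyk2 was the 1 whose groups did not overlap, at 1.245, 1.398, 1.39 and 1.41 in mimic replicates 1, 2, 4 and 5 against 1.492, 1.613 and 1.683 in control replicates 2, 3 and 5. Mimic replicate 1, with the highest Tyk2, was the lowest of these. Jak2 to Jak3 was 0.992, 1.223, 1.152 and 1.023 in mimic replicates 1, 2, 4 and 5 against 1.076, 1.479 and 1.259 in control replicates 2, 3 and 5. Jak1 to Jak2 was 2.59, 2.33, 2.36 and 2.85 in mimic replicates against 2.41, 1.95 and 1.94 in control replicates, with only control replicate 2 inside the mimic range. The ratio of Jak2 to Tyk2 averaged 1.497 ± 0.206 in mimic ankles and 2.04 ± 0.396 in control ankles, with control replicate 2 again inside the mimic range. These ratios are descriptions with no test. The 6 draw on the same 4 genes, and how often ratios of other genes fail to overlap was not measured. The ratios show unequal levels within a library and not which of the pair differed.

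**Figure D4:**
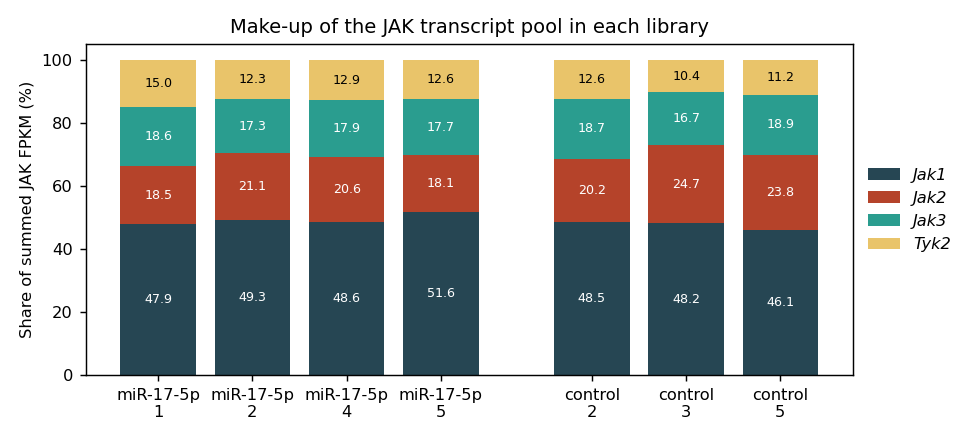
Share (percent, y axis from 0) of the summed Janus kinase FPKM held by each gene in the 4 miR-17-5p ankles and 3 control ankles. Jak1 holds 46.1% to 51.65% in every library, and the Jak2 share is highest in control replicates 3 and 5, at 24.7% and 23.8%.

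Cell type markers also varied between libraries. The 10 neutrophil markers had a lower mean in mimic ankles in 10 of 10 cases and summed to between 1225 and 3031 FPKM there, against 2928 FPKM in control replicate 2 and 5677 and 5379 FPKM in control replicates 3 and 5. Control replicate 2, the library with mimic-like Jak2, was within the mimic range for this sum. Most of the sum came from S100a8 and S100a9, at 1070 and 1660 FPKM in that library. Cxcr2, Csf3r, Fpr1 and Trem1, 4 of the 10, lay wholly below the controls, control replicate 2 included, where 8.84% of all genes did. For the other markers control replicate 2 lay within the mimic range. In mimic replicates 1 and 5 the sum was 3031 and 1225 FPKM, with Jak2 at 18.03 and 18.04 FPKM. The 10 skeletal muscle markers, all higher in mean (median of the log2 fold changes 1.06), summed to between 2473 and 9140 FPKM in mimic ankles and between 1042 and 6292 FPKM in control ankles, with control replicate 2 the highest control. The 10 T and NK cell markers tested were all lower in mean (median of the log2 fold changes -0.181), with 0 wholly below the controls. The 13 listed summed to between 22.5 and 40.3 FPKM in mimic ankles and between 29.5 and 37.0 FPKM in control ankles, with Cd247, Cd8a and Klrb1c averaging under 1 FPKM. The 10 macrophage markers summed to between 1157 and 1550 FPKM in mimic ankles and between 1297 and 1467 FPKM in control ankles. The 8 adipocyte markers, all higher in mean, summed to between 842 and 1145 FPKM in mimic ankles and between 514 and 833 FPKM in control ankles. These ranges narrowly missed each other. Most of each sum came from Fabp4, whose groups overlapped, at 711 FPKM in mimic replicate 1 and 734 FPKM in control replicate 2. Of the 8 adipocyte markers, 5 lay wholly above the controls, where 6.48% of all genes did. B cell markers summed to between 17.3 and 52.7 FPKM in mimic ankles and between 21.2 and 26.6 FPKM in control ankles. The 6 erythroid markers tested were all higher in mean (median of the log2 fold changes 1.05), and the list summed to between 8.88 and 71.4 FPKM in mimic ankles and between 6.38 and 20.5 FPKM in control ankles. The 8 cartilage markers were also all higher in mean, with a median of 0.44, and summed to between 770.3 and 912 FPKM in mimic ankles and between 691 and 822 FPKM in control ankles. No listed marker found in the file was at 0 in all libraries, and all 8 cartilage and all 8 fibroblast markers had a mean of at least 1 FPKM. The part of these cell types in the kinase values was not tested.

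Receptor chains that carry the 4 kinases were measured on the same fit, and 0 passed over all genes. For TYK2 and JAK1, and for JAK2 at Ifngr2, all 8 interferon and IL-10 family chains tested had a lower mean in mimic ankles. So did 6931 of all 13418 genes tested. The 8 chains had a median of -0.26 (log2 fold change), and 2 lay wholly below the controls, where 8.84% of all genes lay. Ifnar1, the TYK2-binding chain of the type I interferon receptor, stood at 20.6, 18.1, 19.9 and 17.4 FPKM in mimic replicates 1, 2, 4 and 5, against 21, 22.5 and 25.7 FPKM in control replicates 2, 3 and 5 (limma adjusted p = 0.217). Ifngr2, the JAK2-binding chain of the interferon gamma receptor and the other of those 2, averaged 43.3 ± 2.29 FPKM in mimic ankles and 53.0 ± 5.35 FPKM in control ankles. Ifnar2 and Ifngr1, which bind JAK1, and Il10rb, which binds TYK2, had log2 fold changes of -0.17, -0.24 and -0.25 with overlapping groups.

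For JAK3, 4 of 7 receptors of the shared gamma chain family had a lower mean, with a median of -0.14 that was 0.0254 without control replicate 5. Il2rg, the shared chain itself, stood at 57.5, 35.9, 57.8 and 36.8 FPKM in mimic replicates 1, 2, 4 and 5, against 44, 44.1 and 66.5 FPKM in control replicates 2, 3 and 5. It varied within each group by more than the groups differed. Il4ra, the IL-4 receptor chain, differed by -1.12 on the log2 scale (SE 0.22, limma adjusted p = 0.173). It lay wholly below the controls, where 8.84% of all genes did. Il21r and Il2rb had -0.37 and -0.15 with overlapping groups.

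For JAK2, 4 of 8 receptors that signal mainly with it had a higher mean and 4 a lower one, with a median of -0.11 that was -0.0661 without mimic replicate 5. Ghr, the growth hormone receptor, lay wholly above the controls, where 6.48% of all genes lay (log2 fold change 0.39, SE 0.071, limma adjusted p = 0.173). Csf2rb, the beta common chain, lay wholly below them at -0.61, as did Csf3r, the G-CSF receptor and a neutrophil marker, at -1.09. Of all genes tested, 8.84% lay wholly below. Csf2rb has a near-identical mouse copy, Csf2rb2, so reads could be split between them. Epor, the erythropoietin receptor, had 0.61 with overlapping groups, beside the 1.05 median of the erythroid markers, whose part in it was not tested. In the IL-6 receptor family, 5 of 8 chains had a lower mean, with a median of -0.049 that was -0.115 without control replicate 2 and -0.01 without control replicate 3. Il6st, the shared gp130 chain, averaged 97.1 ± 4.19 FPKM in mimic ankles and 102 ± 14.3 FPKM in control ankles, and Il6ra, Osmr and Cntfr had log2 fold changes of -0.46, -0.39 and 0.92 with overlapping groups. Of 5 chains listed for IL-12, IL-23, IL-13 and TSLP, 2 could be tested, Il13ra1 at -0.31 and Crlf2 at -0.16, both with overlapping groups. Il12rb1, the TYK2-binding chain for IL-12 and IL-23, lay below the filter, at 0.587 to 1.40 FPKM in mimic ankles and 0.684 to 0.862 FPKM in control ankles.

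Of 27 ligands listed, 10 could be tested, of which 6 lay wholly below the controls and 1 wholly above, where 8.84% and 6.48% of all genes did. Il6 stood at 4.49, 18.7, 27.6 and 3.45 FPKM in mimic replicates 1, 2, 4 and 5, against 36.3, 34.1 and 51 FPKM in control replicates 2, 3 and 5. Lif, an IL-6 family cytokine, and Csf3, the granulocyte growth factor, also lay wholly below, with log2 fold changes of -1.31 (SE 0.26) and -1.57 (SE 0.31). Tslp, whose receptor uses JAK1 and JAK2, lay above at 0.80 (SE 0.14, limma adjusted p = 0.173). Il2, Ifnb1, Ifna4, Epo and Il3, named after their values were seen, were listed at 0 in all 7 libraries.

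The STATs are the substrates of the kinases, and 0 of those described here passed over all genes. Stat2, which acts downstream of type I interferon, stood at 28.7, 30.7, 38 and 26.8 FPKM in mimic replicates 1, 2, 4 and 5, against 17.5, 20.2 and 21.7 FPKM in control replicates 2, 3 and 5. Every mimic ankle lay above every control ankle, as for 6.48% of all genes (log2 fold change 0.63, SE 0.13, limma adjusted p = 0.174). Stat3, which transduces IL-6 family signals, stood at 53.4, 60.7, 61.9 and 55.1 FPKM in mimic replicates 1, 2, 4 and 5, against 65.8, 76.1 and 69.4 FPKM in control replicates 2, 3 and 5. Every mimic ankle lay below every control ankle, as for 8.84% of all genes (log2 fold change -0.28, SE 0.080, limma adjusted p = 0.183). Stat4, Stat5a, Stat5b and Stat6 had -0.17, -0.17, 0.059 and -0.080 with overlapping groups.

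Of 15 genes that restrain the kinases, 11 had a lower mean in mimic ankles and 4 lay wholly below the controls, where 8.84% of all genes did. Their median was -0.16, and -0.292 without control replicate 2. Socs3, which binds JAK1, JAK2 and TYK2 at gp130, stood at 45.7, 56, 58.9 and 49.5 FPKM in mimic replicates 1, 2, 4 and 5, against 68.7, 130 and 128 FPKM in control replicates 2, 3 and 5 (limma adjusted p = 0.174). Control replicate 2 was the lowest control for Socs3 as for Jak2, but here it lay above every mimic ankle. Ptpn1, a phosphatase of JAK2 and TYK2, and Ptpn2, a phosphatase of JAK1 and JAK3, had log2 fold changes of -0.46 and -0.26, and Cbl, a ubiquitin ligase named after its values were seen, completed the 4. Socs1, Ptpn6 and Sh2b3 had -0.16, -0.39 and -0.11, and Cish 0.20, with overlapping groups.

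Other cytoplasmic tyrosine kinases gave a comparison for the family. The median log2 fold change was -0.11 for the 4 Janus kinases and -0.20 for the 23 others tested, of which 7 lay wholly below the controls and 0 above, where 8.84% and 6.48% of all genes did. Src, Matk and Syk, the named ones, had -0.26, -0.45 and -0.49. The Janus kinases ranged from -0.34 to 0.084 and the others from -0.79 to 0.11, and the difference between the families was not tested.

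**Figure D5:**
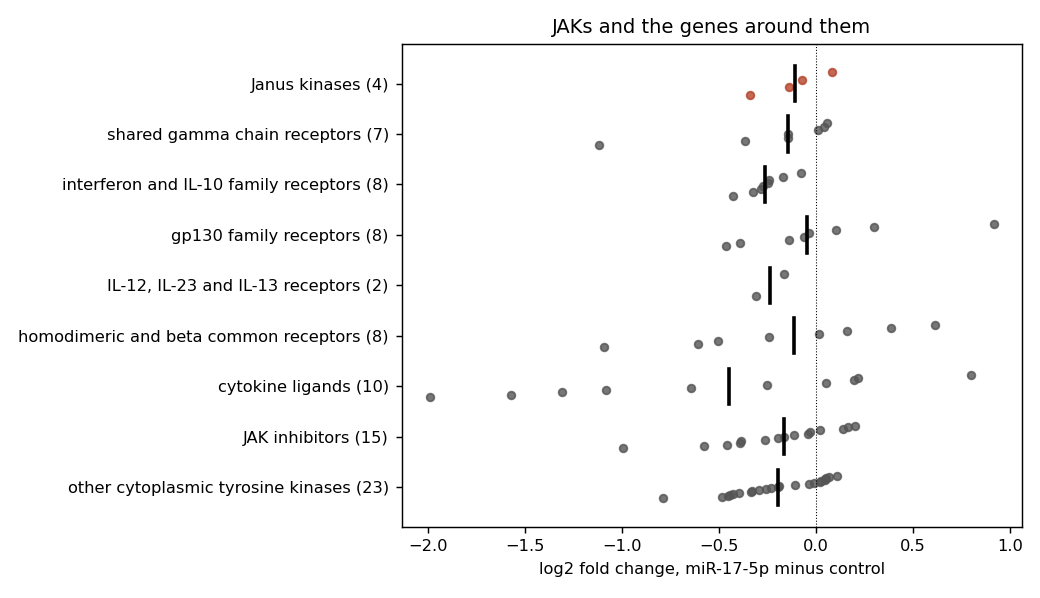
Log2 fold change (x axis, miR-17-5p minus control) of every tested gene in the Janus kinase family and in 8 lists around it, with the number tested in brackets and the median as a black bar. The 4 Janus kinases lie between -0.34 and 0.084, inside the wider spread of the ligands, from -1.99 to 0.80.

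The genes with library patterns most like each kinase differed from kinase to kinase. Likeness was the root mean square difference between log2 values, each centred on its own mean over the 7 libraries of both groups. The nearest to Jak2 were Plk4, Parpbp and Kif20b, at 0.041, 0.044 and 0.047 log2 units, and Plk4 stood at 4.12, 4.50, 4.69 and 4.34 FPKM in mimic replicates 1, 2, 4 and 5 against 4.48, 6.93 and 6.28 FPKM in control replicates 2, 3 and 5. These 3 genes were chosen for likeness to Jak2 over the same libraries, so the low value of control replicate 2 that they share with it follows from the choice. The nearest to Jak1 were Ctcf, Tubgcp4 and Zbtb1, all within 0.0194 log2 units, those to Jak3 were Ppid, Trim28 and Rrbp1, within 0.022, and those to Tyk2 were Xylt2, Dalrd3 and Zfp157, within 0.0304. Between the kinases the closest pair was Jak1 and Jak3, at 0.088, and the farthest Jak2 and Tyk2, at 0.29. Many other genes were nearer than that closest pair, since Jak3 ranked 1998 in likeness to Jak1, and Jak1 ranked 1809 in likeness to Jak3.

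In the deposited gene models (mm10) Jak1 lies on chromosome 4 from 101151974 to 101265282 on the minus strand, Jak2 on chromosome 19 from 29251828 to 29313080 on the plus strand, Jak3 on chromosome 8 from 71676383 to 71690577 on the plus strand, and Tyk2 on chromosome 9 from 21104068 to 21131275 on the minus strand, each with 25 exon blocks. Jak1 shared 397 exon bases, 7.49% of its length, with Raver2 on the opposite strand, and Jak3 shared 406, 9.94% of its length, with Insl3 on the same strand. How reads in those stretches were assigned is not stated, so they cannot be told apart. Raver2 stood at 1.76 to 2.66 FPKM in mimic ankles and 1.59 to 2.03 FPKM in control ankles, and Insl3 at 2.70 to 3.42 FPKM in mimic ankles and 3.17 to 3.26 FPKM in control ankles. The deposited Jak1 model runs 393 bases past the UTR searched for seed matches, so that stretch was not searched. Jak2 and Tyk2 shared no exon base with another gene.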

How the data were processed

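Libraries from 4 miR-17-5p mimic and 3 control ankles were grouped by their titles. The deposited values are FPKM per gene, with exon lengths, per the file headers. How the authors computed them is not given in the sources. Tools named in the submitters' processing notes, without roles, are STAR 2.5.2b, bcl2fastq 2.20, Subread, featureCounts and DESeq2 1.14.1, and the builds are mm10 and GRCm38. The sources used here give neither strand setting nor annotation release. Of 27179 Entrez numbers, 25275 matched a RefSeq symbol.

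Multiplied by exon length, 100.0% of values were whole multiples of a step per library, within 0.01 of a read, giving 27465276 to 31118975 reads per library. Every pair of libraries differed by more than sampling noise (chi-square per gene at least 16.7).

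Groups were compared with limma 3.58.1 (R 4.3.3, with a variance trend) on log2(FPKM + 0.5), a scale that understates low genes. The test took the 13418 genes averaging 1 FPKM or more, 2-sided, with Benjamini-Hochberg adjustment over all of them at 0.05. It was checked on simulated data with planted changes larger than any kinase difference here. That check therefore does not cover differences as small as those of the kinases. Alternatives were pseudocounts of 0.1 and 1, quantile normalization, median-of-ratios scaling, no variance trend, no filter, a filter at 5 FPKM, the replicate number as a block, leaving out each library and, chosen after seeing the data, limma-voom on recovered reads. Members and lists were chosen with earlier results of these data known. Named genes were the members, the 3 genes of smallest p in each pathway or comparison list, a fixed set of receptor, STAT and inhibitor genes, and the 3 nearest genes to each member. Python 3.11.15, pandas 2.3.3 and matplotlib 3.10.9 were used. 1 gene of the lists is not reported here.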

Additional observations from a re-analysis of the deposited data

Results flagged for a closer look

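In 68 sets of 4 mimic values checked, each a gene, a share or a ratio, 3 had 1 ankle far from the other 3, where chance gives about 1 in 20. The ratio of Jak3 to Tyk2 was 1.245 in mimic replicate 1 against 1.39 to 1.41 in the other mimic ankles. Cish was 9.94 FPKM in mimic replicate 5, the others lying at 2.54 to 3.55 FPKM. Src was 18.3 FPKM in mimic replicate 2, the others lying at 19.6 to 19.9 FPKM.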

How the results depend on the processing

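Of 64 values for the 4 kinases under 16 other settings, 62 kept their direction and their side of the threshold. Apart from the fits without control replicate 2 and with no filter, 0 genes passed, so no kinase could change side there. Jak2 passed without control replicate 2, and its log2 fold change ranged from -0.491 to -0.253 over the 7 settings that left out a library. The ranges were -0.123 to -0.0344 for Jak1, -0.178 to -0.0756 for Jak3 and 0.0256 to 0.132 for Tyk2. Tyk2 reversed to -0.0409 with the replicate block, which takes its difference from replicates 2 and 5 alone. Nothing in the labels pairs those numbers, and deviations correlated at 0.535 for replicate 2 and -0.435 for replicate 5. Differently numbered ankles reached similar values, with mimic replicate 1 at 0.534 with control replicate 5 and -0.518 with control replicate 2. The block gave 0 genes over all tested, with 1064 at an unadjusted p under 0.05 against 2356 without it. Genes passing over all tested numbered from 0 to 318 when a library was left out, 318 without control replicate 2, and 1 with no filter on low values. limma-voom on recovered reads, chosen after seeing the data, passed 0, with 2362 at an unadjusted p under 0.05. Among list medians, the shared gamma chain receptors had -0.419 with the replicate block, and the JAK2 receptors -0.0184 with no filter, -0.374 at a mean of at least 5 FPKM and -0.241 with the replicate block. The ligands had a median of -0.449 over the 10 tested at a mean of at least 1 FPKM. With no filter it was 0.0184 over 22 genes, and at a mean of at least 5 FPKM it was -1.31 over 3. Macrophage markers had -0.279 with the replicate block, against -0.0466 without it. Cartilage markers had 0.234 at a mean of at least 5 FPKM and 0.24 with the block, and ranged from 0.23 to 0.649 when a library was left out. The cause of these moves was not tested, apart from the change in genes measured under a filter. Each kinase had at least 1546 reads in every library, and 4 and 3 ankles set the precision.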
